A study of Mus musculus with 2 samples.

Results

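The muscle regulatory transcription factors described here are the 4 genes of the MyoD family (Myod1, Myf5, Myog and Myf6), the satellite cell factor Pax7 and 3 genes of the Mef2 family (Mef2a, Mef2c and Mef2d), with the fusion gene Mymk, which MyoD-family factors switch on in myoblasts. They were chosen by gene symbol, as 9 of the 14704 annotated genes with at least 1 read in either library, and all transcript models assigned to them were used. RNA came from the gastrocnemius, the large calf muscle, of male mice aged 14 days of the strain B6CASTF1/J, a first-generation cross of C57BL/6 and CAST mice, and the alleles of that cross were not told apart here. The series has 1 group, untreated tissue, and 2 libraries, labelled as biological replicates, with 2 µg of input RNA per library. Both carry the same donor identifier and their sample names mention several males. Pooling of animals is not stated, nor whether the replicates came from separate animals, so an SD here measures only how far these libraries differ, which may be technical.

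Each count is a long read, taken to stand for 1 RNA molecule whatever its length. Levels are in CPM, the reads of a gene scaled to a library of 1000000, and are not divided by gene length. Replicate 1 had 1094607 reads and replicate 2 had 626289 after ERCC spike-in RNAs were set aside. A count of 0 allows up to 3 reads, which is 2.74 CPM in replicate 1 and 4.79 CPM in replicate 2. The tissue label was checked against marker genes: the 5 muscle fibre markers summed to 164496 and 155904 CPM, while the 4 cardiac markers summed to 2.74 and 3.19 CPM, with Nppa and Mybpc3 at 0 reads. The libraries differed in other cell types: fibroblast markers summed to 6908 CPM in replicate 1 and 2716 CPM in replicate 2, and Schwann cell markers to 301 and 536 CPM.

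MyoD-family proteins are basic helix-loop-helix activators that pair with E proteins and bind the E-box, a short DNA motif in the promoters and enhancers of muscle genes. Mef2 proteins bind a separate A/T-rich motif through a MADS domain and act together with them. Myod1 and Myf5 commit cells to the muscle lineage and act in myoblasts, Myog drives their differentiation, and Myf6 is the member known for high expression in mature fibres. Pax7 marks the satellite cells, the resident stem cells of muscle. In vertebrates the Mef2 genes are spliced at 3 places. An exon of the pair called alpha lies just after the conserved DNA-binding part, the short beta exon lies in the activation region, and in Mef2c the gamma region opens the last coding exon. Muscle is known for a Mef2d form with the second exon of the alpha pair and with the beta exon.

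The alternative exons at which the Mef2 reads were scored are shown, apart from the alpha pair of Mef2a. Positions are on mm10, and the sequences are those of GENCODE M21 transcripts, 5′ to 3′ on the gene's strand. Mef2a lies on the minus strand of chromosome 7, Mef2c on the plus strand of chromosome 13 and Mef2d on the plus strand of chromosome 3. All of these exons are coding. In each alpha pair shown, capitals mark the bases that differ from the other exon of the same gene in a global alignment. The alpha pairs of Mef2c and Mef2d are printed. The upstream exons are at chr13:83625265-83625408 in Mef2c (144 bases) and chr3:88158034-88158171 in Mef2d (138 bases). The downstream exons are at chr13:83625470-83625607 (138 bases) and chr3:88158221-88158355 (135 bases).
Mef2c upstream: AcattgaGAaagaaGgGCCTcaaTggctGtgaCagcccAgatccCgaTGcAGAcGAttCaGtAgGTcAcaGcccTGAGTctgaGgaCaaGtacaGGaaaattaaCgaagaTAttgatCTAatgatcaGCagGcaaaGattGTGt
Mef2c downstream: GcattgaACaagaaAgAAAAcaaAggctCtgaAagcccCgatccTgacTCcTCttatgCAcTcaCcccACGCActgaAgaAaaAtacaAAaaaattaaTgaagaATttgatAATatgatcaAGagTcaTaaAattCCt
Mef2d upstream: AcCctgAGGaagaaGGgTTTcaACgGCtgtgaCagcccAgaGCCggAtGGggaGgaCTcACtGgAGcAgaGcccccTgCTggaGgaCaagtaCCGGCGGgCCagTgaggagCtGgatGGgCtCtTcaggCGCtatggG
Mef2d downstream: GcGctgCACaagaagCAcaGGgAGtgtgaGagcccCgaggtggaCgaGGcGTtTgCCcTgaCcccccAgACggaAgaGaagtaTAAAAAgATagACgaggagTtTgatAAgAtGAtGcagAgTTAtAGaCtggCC

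Within a gene, the exons of the pair were identical at 64.8% of aligned positions in Mef2c and 55.2% in Mef2d. Between these genes, the downstream exons were identical at 65.9% of positions and the upstream exons at 65.5%. The upstream exon of Mef2c and the downstream exon of Mef2d gave 58.6%, and the downstream exon of Mef2c with the upstream exon of Mef2d gave 51.0%.

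The beta exons are at chr7:67244521-67244544 in Mef2a (24 bases), chr13:83654598-83654621 in Mef2c (24 bases) and chr3:88161781-88161801 in Mef2d (21 bases). Below, capitals mark the beta exon, or the gamma region of Mef2c at chr13:83662307-83662402 (96 bases), and the 15 bases on each side are the spliced coding flanks.
Mef2a beta: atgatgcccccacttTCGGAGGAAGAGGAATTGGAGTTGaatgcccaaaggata
Mef2c beta: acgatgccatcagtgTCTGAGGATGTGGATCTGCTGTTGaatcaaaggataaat
Mef2d beta: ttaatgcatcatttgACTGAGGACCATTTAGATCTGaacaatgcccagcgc
Mef2c gamma: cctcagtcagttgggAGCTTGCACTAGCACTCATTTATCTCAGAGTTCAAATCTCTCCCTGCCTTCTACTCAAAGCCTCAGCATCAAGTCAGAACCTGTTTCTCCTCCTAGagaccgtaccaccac

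The 9 genes together had 578 reads in replicate 1 and 290 in replicate 2, a summed level of 528 and 463 CPM (496 ± 46.0, SD, n = 2). This was 0.0528% and 0.0463% of the reads. Myog and Myf6 led, the Mef2 genes followed, Myod1 and Mymk were lower, and Myf5 and Pax7 were at or under the level of 3 reads.

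Myog, which drives differentiation, was read 162 times in replicate 1 and 89 times in replicate 2, or 148 and 142 CPM (145 ± 4.17). It ranked 714th by mean level among the 14704 genes. Myf6, also called MRF4, had 134 and 62 reads, or 122 and 99.0 CPM (111 ± 16.6, rank 937). On mm10, Myog lies at chr1:134289989-134292548 on the plus strand, and Myf6 at chr10:107492853-107494737 on the minus strand, next to Myf5. The library values of Myog and Myf6 did not overlap, Myog being higher in both, but their counting intervals overlapped in each library.

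Myod1 had 30 and 8 reads, or 27.4 and 12.8 CPM (20.1 ± 10.3, rank 4166). As a ratio of the libraries, its gap was the widest among the 7 members with at least 10 reads, while Myf6 had the widest gap in CPM. Myf5 had 1 and 3 reads (0.914 and 4.79 CPM), at or below the limit that a count of 0 allows in each library. Pax7 had 0 reads in replicate 1 and 1 read in replicate 2, and that read sat on an unspliced model listed as 1 base long at the 3′ end of the gene, so no Pax7 read showed splicing.

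Within the MyoD family, Myog took 52.2% ± 3.82 of the reads, Myf6 39.6% ± 1.91, Myod1 7.06% ± 3.00 and Myf5 1.08% ± 1.09 (SD, n = 2). The family had 327 reads in replicate 1 and 162 in replicate 2. The exact Clopper-Pearson 95% intervals of Myog were 44.0% to 55.1% and 46.9% to 62.8%, and those of Myf6 were 35.6% to 46.5% and 30.8% to 46.2%. Every interval given, and the limit for a gene with no read, reflects counting error alone and takes the reads as independent. The files hold no molecular identifiers, so copies of the same molecule could not be recognised, and the true error may be wider. In the muscle as a whole, fewer cells of a type and less RNA per cell cannot be told apart.

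Mef2c had 101 and 49 reads, or 92.3 and 78.2 CPM (85.3 ± 9.92, rank 1234). Mef2d had 92 and 45 reads, or 84.0 and 71.9 CPM (78.0 ± 8.62, rank 1339). The libraries' values of these 2 genes overlapped, so their order was not larger than the spread. Mef2a had 32 and 18 reads, or 29.2 and 28.7 CPM (29.0 ± 0.349, rank 3206), below Mef2d in both libraries.

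Of the Mef2 family's 228 and 114 reads, Mef2c took 43.6% ± 0.930, Mef2d 39.9% ± 0.620 and Mef2a 14.9% ± 1.24. The fourth gene of the family, Mef2b, which is best known from lymphoid cells, had 3 and 2 reads, 1.54% ± 0.310 of the family. When annotated models alone were counted, the Mef2c share was 63.1%, the Mef2a share 23.8% and the Mef2d share 13.1%, a change tied to how few Mef2d reads match an annotated transcript, as described below.

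Mymk encodes myomaker, a membrane protein that myoblasts need to fuse. It had 26 and 15 reads, or 23.8 and 24.0 CPM (23.9 ± 0.140, rank 3710). Its values lay between those of Myod1 in the 2 libraries, so Mymk and Myod1 could not be ordered. Mef2a was above Mymk in both libraries, within overlapping counting intervals. Mymx, its partner in fusion (myomixer), had 1 and 7 reads.

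**Figure D1:**
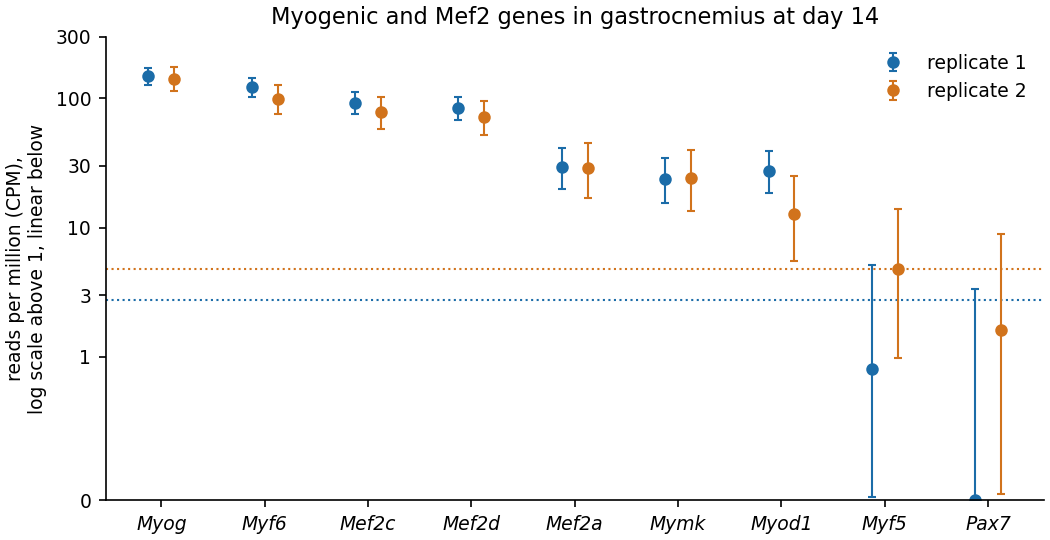
Level of each of the 9 genes in CPM (vertical axis, logarithmic above 1 and linear below) in replicate 1 (blue) and replicate 2 (orange), with exact Poisson 95% intervals. Dotted lines mark the level of 3 reads in each library: Myog and Myf6 stand highest, and Myf5 and Pax7 lie at or under these lines.

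The libraries were compared gene by gene with Fisher's exact test (two-sided, Benjamini-Hochberg adjusted over all genes tested, threshold 0.05), which compares these libraries and not conditions. None of the 7 members with at least 10 reads was called, and none had an unadjusted p under 0.05. The background was 1070 calls among 7955 genes, or 13.5%, with 522 higher and 548 lower in replicate 2. With TMM scaling 929 genes were called, 663 of them higher in replicate 2 (71.4%, against 48.8% without it), and again no member was called. The lowest p among the members was that of Myod1, 0.0623 (adjusted p = 0.242), at a ratio of replicate 2 to replicate 1 of 0.466. The median log2 ratio of replicate 2 to replicate 1 was -0.23 for the 7 members. It was -0.26 for all tested genes with a read in both libraries, and TMM scaling raised both medians by 0.18.

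Most reads of Myog, Myf6, Myod1 and Mymk were on 1 annotated transcript each. Myog-201, with 3 exons, took 157 of 162 reads in replicate 1 and 82 of 89 in replicate 2 (94.5% ± 3.38). Myf6-201, also with 3 exons, took 125 of 134 and 62 of 62 reads (96.6% ± 4.75). Myod1-201 took 27 of 30 and 6 of 8 reads, and the 5-exon Mymk-201 took 23 of 26 and 11 of 15. These 4 genes have 1 annotated transcript each apart from Mymk, which has 2.

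The remaining reads differed by gene. For Myog, 2 and 7 reads were unspliced and lay within the last exon, and 3 reads of replicate 1 were partial matches with 2 exons. For Myf6, replicate 2 had no other model. In replicate 1, 6 Myf6 reads were partial matches, 3 of which kept the last intron, and 3 used a splice site that is not annotated, 2 of them with an extra exon before the annotated start. Of all Myog reads, 95.6% were on models that reached from the start codon to the stop codon, against 97.4% for Myf6, 89.5% for Myod1 and 85.4% for Mymk.

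The Mef2 genes were spread over many more models. Mef2a had 15 models in replicate 1 and 7 in replicate 2, Mef2c 23 and 16, and Mef2d 25 and 19, against 4 and 2 for Myog. Annotated transcripts held 30% of Mef2a reads, 26.7% of Mef2c reads and only 5.84% of Mef2d reads (8 of 137), whereas they held 95.2% of Myog reads. In the libraries as a whole, 70.4% and 69.4% of reads were on annotated transcripts. Without partial matches Mef2d stood at 48.9 CPM, on a scale of the reads that remain, against 78.0 with all models. Level therefore depended on the models counted: with annotated models alone, Mef2d stood at 6.70 CPM, Mef2a at 12.2 and Mef2c at 32.5, on a scale of reads on annotated models.

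Unspliced reads made up 26.0% of Mef2a, 27.3% of Mef2c and 22.6% of Mef2d reads. In these 3 genes all of them lay at the 3′ end. Models from start codon to stop codon held 60% of Mef2a, 66.7% of Mef2c and 65.0% of Mef2d reads, all below the shares of the 4 genes above. The read-weighted length of complete models was 5213 bases for Mef2a, 3112 for Mef2c and 4226 for Mef2d, against 1261 to 1861 for Myf6, Mymk, Myog and Myod1. The part of transcript length in these shares was not tested.

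**Figure D2:**
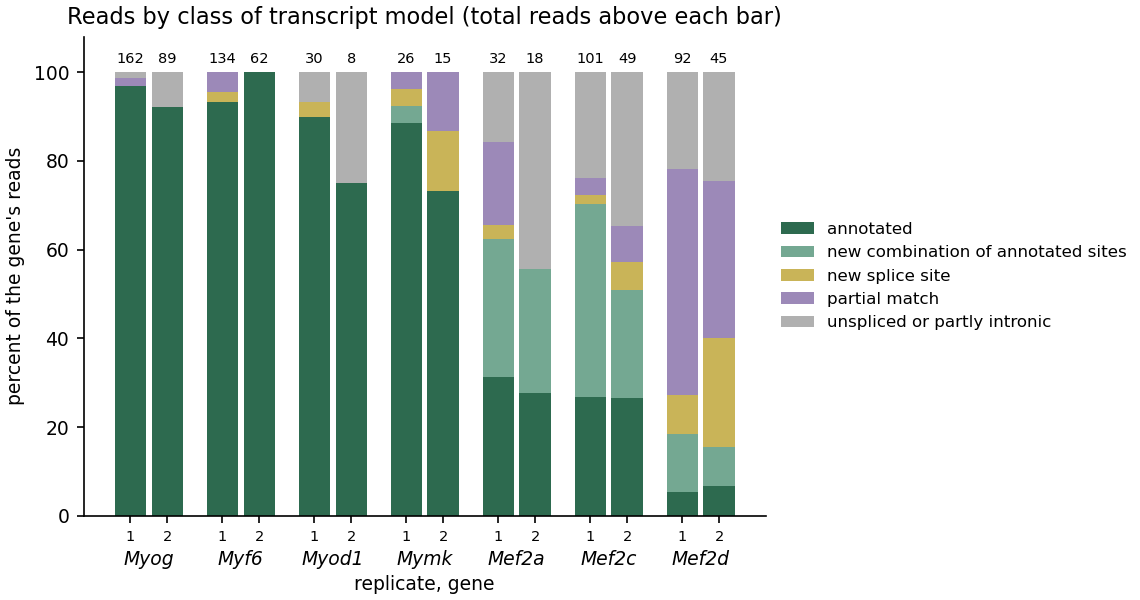
Percent of each gene's reads (vertical axis) by class of transcript model for the 7 genes with at least 10 reads, with a bar per replicate and the read count above it. Annotated transcripts fill most of the Myog, Myf6, Myod1 and Mymk bars and at most 31.2% of the Mef2 bars.

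The alpha pair could be read in 59 Mef2d reads of replicate 1 and 30 of replicate 2. The downstream, 135-base exon was in 50 and 22 of them, or 84.7% and 73.3% (79.0% ± 8.07, SD, n = 2). The 138-base upstream exon was in 8 and 7 reads (18.4% ± 6.91). Exact 95% intervals of the downstream share were 73.0% to 92.8% and 54.1% to 87.7%, so it was the majority form in both libraries. Of the other 2 reads, 1 joined a shortened upstream exon to the downstream exon, and 1 held both exons with the intron between them.

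The 21-base beta exon of Mef2d was in 55 of 63 reads in replicate 1 and 28 of 34 in replicate 2, or 87.3% and 82.4% (84.8% ± 3.50). Only 2 and 1 reads joined the flanking exons directly. A further 6 and 5 reads (12.1% ± 3.66) used a junction that is not in the annotation. In 9 of these 11 reads it ran from the base before 88161388 to the base after 88162940 on chromosome 3, which adds 6 bases to the exon before beta and 17 bases to the exon after it, 23 in all. In the other 2 reads the intron began at 88161386, and the bases added came to 21, the length of the beta exon itself. These reads were counted as neither with nor without beta.

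Single reads showed both choices at once. Of the 72 Mef2d reads with the downstream alpha exon, 70 also had beta (97.2%, exact 95% interval 90.3% to 99.7%), 48 in replicate 1 and 22 in replicate 2. Of the 15 with the upstream exon, 10 had beta (66.7%, interval 38.4% to 88.2%), 2 did not and 3 used the unannotated junction. None of the 7 annotated Mef2d transcripts, 4 of them coding, combines the downstream alpha exon with beta, although both exons are annotated. The pair was on 70 of the 89 Mef2d reads that show both sites, and those reads had no annotated transcript with the same pair.

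The model with the most Mef2d reads was of this kind. It had 12 exons, the downstream alpha exon, beta and the last intron removed, and it held 28 reads in replicate 1 and 8 in replicate 2 (24.1% ± 8.95) when models were joined by their intron chain. The files class it as a partial match in both libraries. No annotated Mef2d transcript holds its pair of exons, so what it was matched to is not known here. The next chain of the same pair differed by its first exon, and its 7 reads in replicate 1 are classed as a new combination of known sites while its 5 reads in replicate 2 are classed as having a new site. The best-read annotated transcript, Mef2d-203, which has the upstream exon with beta, had 4 and 2 reads.

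The last intron of Mef2d, chr3:88168345-88168631 (287 bases), was removed in 51 of 63 and 26 of 34 reads (78.7% ± 3.17). It was kept in 9 and 6 reads (16.0% ± 2.38), a form that the annotated Mef2d-204 also has, and 3 and 2 reads removed a shorter intron with a later start. Retention was seen with either alpha exon, in 11 of 72 reads with the downstream exon and 3 of 14 with the upstream exon.

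Mef2a reads were fewer, 21 and 9 at the alpha pair. The 132-base upstream exon was in 13 and 6 of them, or 61.9% and 66.7% (64.3% ± 3.37), and the 138-base downstream exon was in the other 8 and 3. Exact 95% intervals of the upstream share, 38.4% to 81.9% and 29.9% to 92.5%, both spanned an even division. Its 24-base beta exon was in 21 of 25 and 8 of 10 reads (82.0% ± 2.83).

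Beta was frequent with either alpha exon of Mef2a, in 17 of 19 reads with the upstream exon and 9 of 11 with the downstream exon. The annotation has 2 transcripts with the upstream exon and beta, among them Mef2a-208, the best-read Mef2a model with 7 and 4 reads. It has none with the downstream exon and beta, and 9 reads carried that pair.

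Mef2c was divided almost evenly at the alpha pair in replicate 1 and less evenly in replicate 2. The 138-base downstream exon was in 35 of 73 reads in replicate 1 and 17 of 28 in replicate 2, or 47.9% and 60.7% (54.3% ± 9.03). The 144-base upstream exon was in 36 and 9 (40.7% ± 12.1). Neither exon was a majority in replicate 1, with 36 and 35 reads. The downstream exon was the more frequent in replicate 2, and the libraries differed within counting error. Of the other 4 reads, 2 joined a 60-base form of the upstream exon to the downstream exon, 1 had an upstream exon 2 bases shorter and 1 had neither exon.

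The beta exon of Mef2c was in 0 of 75 reads in replicate 1 and 0 of 30 in replicate 2, which allows a share of up to 4.00% and 10%. All 105 reads joined the flanking exons directly. The exact 95% intervals of Mef2c ended at 4.80% and 11.6%. Those of Mef2a and Mef2d did not overlap them, since their exact 95% intervals for beta started at 63.9% or above in replicate 1 and at 44.4% or above in replicate 2.

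The gamma region of Mef2c was kept in 48 of 75 and 17 of 30 reads, or 64.0% and 56.7% (60.3% ± 5.19). It was left out in 25 and 13 reads, and 2 reads of replicate 1 used another acceptor. Gamma was in 30 of 45 reads with the upstream alpha exon (66.7%, interval 51.0% to 80%). With the downstream exon it was in 30 of 52 (57.7%, interval 43.2% to 71.3%). These intervals overlap, and whether the choices are linked was not tested. All 4 combinations were read in both libraries.

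**Figure D3:**
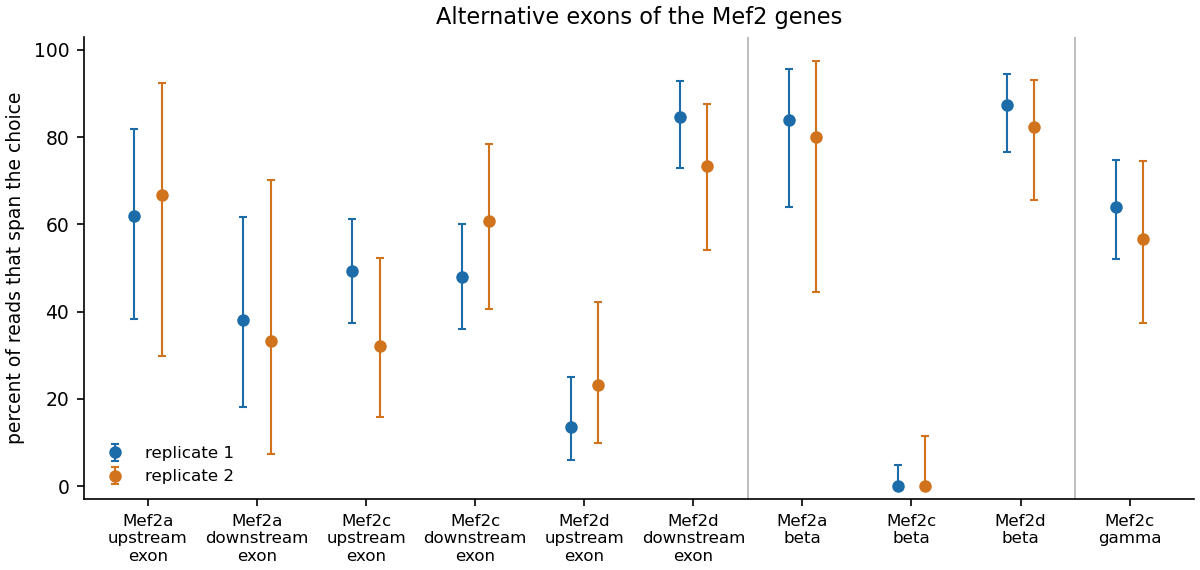
Percent of informative reads (vertical axis) with each alternative exon of Mef2a, Mef2c and Mef2d in replicate 1 (blue) and replicate 2 (orange), with exact 95% intervals. The downstream exon leads in Mef2d, the exons of Mef2c are near even in replicate 1, and beta is above 80% in Mef2d and at 0 in Mef2c.

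**Figure D4:**
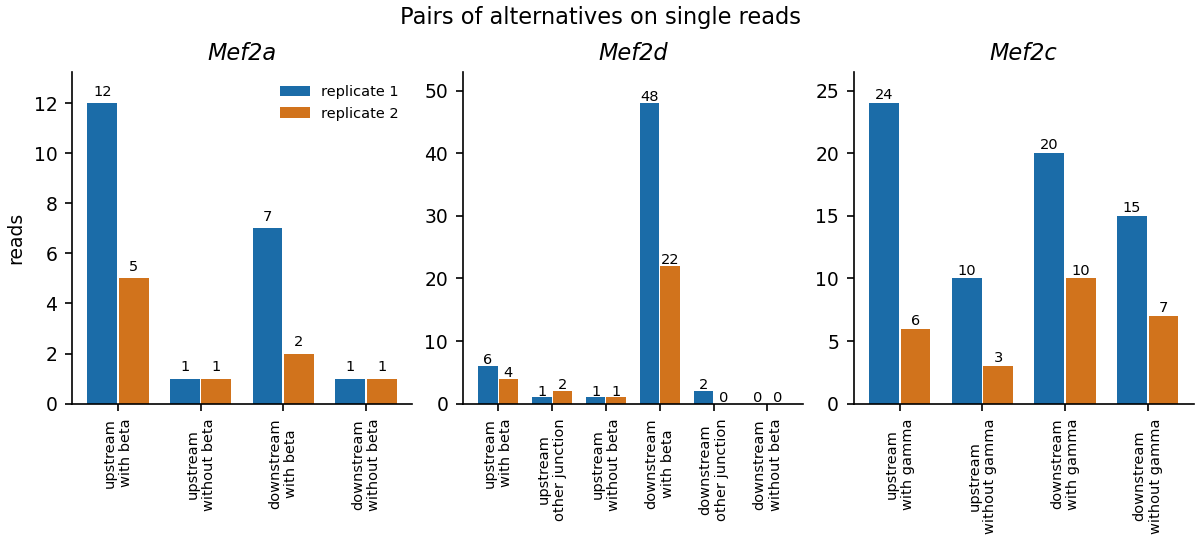
Reads (vertical axis) that carry each pair of alternatives on the same molecule, for the alpha pair with beta in Mef2a and Mef2d and with gamma in Mef2c, by replicate. In Mef2d, 48 and 22 reads carry the downstream exon with beta, and in Mef2c all 4 pairs have reads in both replicates.

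The 5′ end of Mef2c was nearly uniform. Of the reads that reached the exon with the start codon from an upstream exon, 71 of 74 and 30 of 30 began in the most upstream annotated first exon, which ends at 83504376 on chromosome 13, and 3 reads of replicate 1 began in an exon ending at 83525080. The exon with the start codon was entered at 83575538 in 53 of 74 and 22 of 30 reads (72.5% ± 1.21) and 3 bases earlier, at 83575535, in the remaining 21 and 8. The start codon itself begins at 83575677, so this choice lies in the 5′ UTR.

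Promoter windows from RefSeq (GRCm38.p6) matched 6 of the 9 genes, in 8 windows. Those of Myog, the most read gene of the set, and of the Mef2c start used by 101 of the 104 reads that show a first exon are shown, each as the 250 bases before the RefSeq start on the plus strand, at chr1:134289754-134290003 and chr13:83503784-83504033. Capitals mark each E-box, CANNTG, a motif that reads the same on both strands.
Myog promoter: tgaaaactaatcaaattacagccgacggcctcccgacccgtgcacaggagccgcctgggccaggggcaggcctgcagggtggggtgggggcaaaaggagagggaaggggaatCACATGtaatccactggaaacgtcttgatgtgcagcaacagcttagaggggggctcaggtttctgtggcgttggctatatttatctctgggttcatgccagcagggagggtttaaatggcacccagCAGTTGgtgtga
Mef2c promoter: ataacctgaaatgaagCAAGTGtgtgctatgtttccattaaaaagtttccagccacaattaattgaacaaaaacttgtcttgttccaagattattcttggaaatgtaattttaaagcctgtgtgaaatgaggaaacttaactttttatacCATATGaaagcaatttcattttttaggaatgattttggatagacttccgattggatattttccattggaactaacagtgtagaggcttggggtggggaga
Each window held 2 E-boxes, which begin 138 and 12 bases before the Myog RefSeq start and 234 and 100 bases before the Mef2c RefSeq start. For Myog, the RefSeq start lies 15 bases after the annotated start of the gene. The E-box nearest the RefSeq start therefore lies within the annotated gene, not upstream of it. An E-box was in 66.2% of all 32851 windows of this length, and 31.8% held at least 2. The strict MEF2 motif, CTAWWWWTAR (W is A or T, R is A or G), was searched on both strands with no mismatch allowed. It was in 1.69% of all windows and in none of the 8. Near matches were not counted: the Myog window holds ctatatttat, which departs from the motif only at its last base. These matches describe the letters of the windows and not binding.

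E proteins are the dimer partners of the MyoD family. The E protein genes Tcf3, Tcf4 and Tcf12 stood at 49.5 ± 6.73, 31.2 ± 1.16 and 10.8 ± 4.04 CPM, and none of the 3 was called between the libraries. Their sum was 90.4 and 92.6 CPM, below the level of Myog alone in both libraries.

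Of the 13 genes that oppose these factors, 12 had a read and Mdfi had none. Id3, which captures E proteins, led at 41.2 ± 2.71 CPM, followed by the Notch target Hes1 at 30.9 ± 3.68 and Bhlhe40 at 30.3 ± 17.9. Hey1 stood at 11.0, Bhlhe41 at 7.53, Id4 and Msc at 6.16 each, Mdfic and Twist2 at 5.25 each, Id2 at 3.88, Twist1 at 1.83 and Id1 at 1.26 CPM. Bhlhe40 was lower in replicate 2, 42.9 against 17.6 CPM (Fisher's exact test, adjusted p = 0.0452). It was the only call among the 8 tested, where 13.5% of all genes were called. The median log2 ratio of these 8 was -0.53, beside -0.26 for all tested genes with a read in both libraries.

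Class II histone deacetylases bind Mef2 proteins and repress their targets. Hdac7 was the most read of the 5 Mef2 repressors at 43.1 ± 15.8 CPM, with Hdac4 at 16.8 ± 3.40, Hdac5 at 13.7 ± 10.3, Cabin1 at 8.22 ± 2.59 and Hdac9 at 2.05 ± 1.61. None of the 4 tested was called. Hdac5 had 23 and 4 reads and Hdac7 35 and 34, with unadjusted p of 0.0257 and 0.0327 in opposite directions (adjusted p = 0.134 and 0.159, Fisher's exact test).

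All 7 coactivators had a read, and 0 of 4 tested were called. Smarcd3, the muscle subunit of the SWI/SNF chromatin remodelling complex, led at 167 ± 21.3 CPM and the arginine methyltransferase Carm1 followed at 92.0 ± 8.15. Kat2b and Crebbp, both acetyltransferases, were at 8.56 and 6.39 CPM.

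Among 15 transcription factors that work with these genes, 14 had a read and Myocd, a smooth and cardiac muscle coactivator, had none. Vgll2, a cofactor of Tead proteins, stood at 141 ± 42.9 CPM, Nfix at 125 ± 34.2 and Srf at 45.4 ± 3.51. Vgll2 was lower in replicate 2 (adjusted p = 0.0172, Fisher's exact test), the only call among 7 tested, a share near the 13.5% of all genes.

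Calcium signals relieve Mef2 of repression through calcineurin and CaM kinases. All 11 genes of this list had a read. Ppp3ca and Ppp3r1, the catalytic and regulatory subunits of calcineurin, were at 201 ± 28.7 and 119.5 ± 40.3 CPM, Camk2b at 118 ± 27.5 and the p38 kinase Mapk14 at 60.8 ± 16.0. Ppp3r1 was lower in replicate 2 (adjusted p = 0.0127), the only call among 9 tested by Fisher's exact test, beside 13.5% of all genes.

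Of 11 regulators known for splicing muscle exons, 10 had a read and Mbnl3 had none. Srpk3, a kinase of splicing factors that is itself a Mef2 target, stood at 184 ± 13.9 CPM, Rbm24 at 181 ± 47.9, Mbnl2 at 118 ± 47.4 and Mbnl1 at 51.3 ± 20.5. Mbnl2 and Rbm24 were lower in replicate 2 (adjusted p = 0.00204 and 0.0180, Fisher's exact test), the only calls among 10 tested, beside 13.5% of all genes. No call was made on the exon shares of the Mef2 genes, which were not tested between the libraries.

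All 27 genes listed as targets of MyoD-family and Mef2 proteins had reads, 130031 CPM in sum in replicate 1 and 149706 in replicate 2. Ckm, the muscle creatine kinase, led at 68094 ± 2142 CPM, then the fast myosin light chains Mylpf (26756 ± 6879) and Myl1 (16864 ± 4402) and the glycolytic aldolase Aldoa (9960.2 ± 1623). Of the 25 tested, 9 were higher and 5 lower in replicate 2, where 13.5% of all genes were called. That background depends on depth: with a minimum of 50 reads over both libraries, 33.2% of genes were called. The list includes some of the most read genes, such as Ckm and Mylpf, so these shares are not matched for reads. Whether targets were called more often than other genes with as many reads was not tested. The median log2 ratio of the 25 genes was -0.15.

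Satellite cell markers were few in these libraries. The 7 genes of that list, Pax7 and Myf5 among them, summed to 39.3 and 41.5 CPM, and Cdh15, which myoblasts and other cells of the lineage also carry, gave 31.1 and 14.4 CPM of it. Calcr, a marker of quiescent satellite cells, had 0 reads in both. Pax3, the close relative of Pax7, had 0 reads as well.

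The shares of leading models were also compared between the libraries in every gene with more than 1 complete model (annotated, new combination or new site) and, per library, 50 or more reads on complete models. Myf6 was the only member that qualified, with 125 of 128 and 62 of 62 complete reads on Myf6-201 (p = 0.552, adjusted p = 0.992, Fisher's exact test). It was not called, beside 62 of 961 genes called, or 6.45%.

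Antisense models lay opposite 7 of the 9 genes. Myf5, on chromosome 10, had an unannotated single-exon model opposite it at chr10:107482908-107483795, which starts at the annotated 3′ end of the gene. That model had 9 and 12 reads, against 1 and 3 for Myf5 itself. Whether reads were given the right strand was not tested, so the Myf5 level is uncertain by these reads.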

How the data were processed

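Long-read RNA was counted in 2 libraries of 1 tissue. For each library the authors deposited a table of whole-number counts, the reads assigned to every transcript model, and an annotation of the exons of those models. Per the deposited file descriptions, both were made from a filtered alignment on mm10 with GENCODE M21, and attribute names point to TALON. The aligner and its settings: not given in the sources used here.

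Counts were used as deposited. Models on ERCC contigs were set aside and CPM were computed per 1000000 remaining reads. A gene's count sums all its models. Model classes are those of the files: annotated, new combination of known sites (NIC), new site (NNC), partial match (ISM) and Genomic, of which the first 3 are called complete. A read counted for an exon where its model's introns joined that exon to its neighbours. Ends of models are those the files list, and reads with the same intron chain share a model. Model identifiers of unannotated models differ between libraries, so these were also joined by intron chain. Exon sequences were aligned globally (match 2, mismatch -1, gap -3).

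Shares carry exact Clopper-Pearson 95% intervals and counts exact Poisson intervals. Each gene was compared between libraries (Fisher's exact test, two-sided) among genes with at least 10 reads over both, with Benjamini-Hochberg adjustment. TMM factors came from edgeR 4.0.16 (R 4.3.3). The rest used scipy 1.17.1, numpy 2.4.6, pandas 2.3.3 and matplotlib 3.10.9 under Python 3.11.15. The members, gene lists and tests were chosen with earlier results of these data known. Named are all 9 members, every E protein, inhibitor and Mef2 repressor, and up to 4 of the most read genes of each other list. Alternatives changed the models counted, the minimum of reads, the scaling and the replicates used. Some items that this rule would name are not reported here.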

Additional observations from a re-analysis of the deposited data

Results flagged for a closer look

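Reads on unannotated models of the opposite strand exceeded the 3 reads that a count of 0 allows at 2 of the genes. Opposite Myf5 there were 9 reads in replicate 1 and 12 in replicate 2, all on 1 single-exon model per library. Opposite Mef2c there were 6 reads in replicate 1 and 10 in replicate 2, on 4 models in each library. These reads entered no test, and the strand assignment was not tested.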

How the results depend on the processing

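Of 96 recomputed values that answer a comparison, 82 moved by no more than the SD between the libraries (or, for counts of calls, by no more than 1.5 times). The 82 include the values that leave out a replicate. With 2 libraries these always lie within the SD, so they are no check of stability. The same holds for such values of single genes below. No member was called under any of the 5 other settings of the library comparison, which called 778 to 1085 genes. The other 14 moved. Without Genomic models, the summed level was 449 CPM. Each level under another choice of models is scaled to the reads on the models kept, so the total changes as well. With annotated models alone, the Mef2a upstream exon was at 84.4%, its beta exon at 75.0%, the Mef2d downstream exon at 0 (Mef2d has 5 and 3 annotated reads in all), its beta exon at 73.3% and the Mef2c share of its family at 63.1%. With models of at least 2 reads, these were 67.7%, 100%, 90.1% and 90.8% for the 4 exon shares in that order. With complete models alone, the Mef2d downstream exon was at 62.7%, since its leading model is classed as a partial match, and leading models took 100% of Myog, 98.2% of Myod1 and 36.7% of Mef2a reads. By model identifier, the leading Mef2d model had no counterpart in replicate 2 (15.2% as a mean of both libraries), and took 24.1% when joined by intron chain. The leading Mef2c model by identifier was unspliced (11.4%), and all unspliced Mef2c reads together took 29.2%. Of 100 further values for single genes, 26 moved, all under another choice of models or with spike-ins kept. With annotated models alone, Myog was at 196 and Myf6 at 152 CPM, on the smaller total of annotated reads. The reads themselves did not rise: Myog had 157 and 82 on annotated models, against 162 and 89 on all models. Without replicate 1 or replicate 2, the summed level was 463 to 528 CPM. No paired analysis was possible because the series has 1 group. Depth also limits the exon shares, with 9 to 75 informative reads per library.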
